A study of Homo sapiens with 12 samples.

Results

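The 10 regulators of the BCL2 family described here, BCL2, BCL2L1, MCL1, BAX, BAK1, BBC3, PMAIP1, BID, BCL2L11 and BIK, were taken by gene name from a table of 58735 genes, and each name matched 1 row. The table holds RNA sequencing of 12 libraries of wild-type cells, labelled as the ovarian granulosa cell tumor lines KGN and COV434. Each line has 3 untreated control libraries and 3 libraries of cells given 77-39, described as an inhibitor of the deacetylase SIRT3, for 72 h at a dose written as 10 μm/ml. The same treatment text stands on the untreated libraries, so treatment was taken from the sample titles. Each line is 1 line, and nothing in the labels says that the 3 libraries of a group came from separate cultures, so p-values measure only the spread between these libraries. Values are FPKM, fragment counts scaled for gene length and library size, which allow levels of different genes to be set side by side.

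The BCL2 family decides whether the outer mitochondrial membrane is opened, the step that lets cytochrome c out and starts the caspases. Pro-survival proteins (BCL2, BCL-XL from BCL2L1, and MCL1) hold the effectors BAX and BAK in check, and BH3-only proteins (PUMA from BBC3, NOXA from PMAIP1, BID, BIM from BCL2L11, and BIK) bind the pro-survival proteins or activate the effectors. NOXA binds mainly MCL1, while PUMA and BIM bind all the pro-survival proteins. BBC3, PMAIP1 and BAX are known p53 target genes. Much of the control of the family is on the protein, which RNA levels do not show, and gene-level FPKM do not separate isoforms with opposite roles, such as the long and short forms of BCL2L1 and MCL1.

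Several markers went against the cell line labels. FOXL2, the transcription factor mutated in adult granulosa cell tumors and known to be expressed in KGN, had 2 reads over the 6 KGN-labelled libraries and 11.5 to 14.0 FPKM in those labelled COV434. SMARCA2, a chromatin remodelling ATPase known to be lost in COV434, was at 4.51 to 6.48 FPKM in the libraries labelled COV434 and had 13 reads in those labelled KGN. SMARCA4, listed with it, was present under both labels, at 2.25 to 2.60 FPKM under the KGN label and 6.51 to 12.6 under the COV434 label. KRT8 was at 137 to 264 FPKM under the COV434 label and at most at 0.0627 FPKM under the KGN label, whereas WT1 was at 45.9 to 61.4 FPKM under the KGN label and at 0 under the COV434 label. KRT18 ran as KRT8 did, while the epithelial markers EPCAM and CDH1 were at most at 0.226 FPKM under either label. FSHR, the receptor that defines granulosa cells, was at 0 in all 12 libraries, and AMHR2, NR5A1 and GATA4 were at or near 0. INHBA, CYP19A1 and FST were at most at 0.198 FPKM. Other granulosa cell markers were present: AMH was at 4.07 to 4.83 FPKM under the KGN label and 5.45 to 9.14 under the COV434 label. INHA was at 0.580 to 1.22 and 2.40 to 5.22 FPKM, and INHBB at most at 0.0886 and at 6.32 to 9.17 FPKM. The 12 granulosa cell markers summed to 51.7 to 67.6 FPKM under the KGN label, nearly all of it WT1, and to 29.4 to 34.3 under the COV434 label. Each direction between the lines given here is therefore a direction between labels, while the treatment comparisons stay within 1 label. Fewer cells of a type and less RNA per cell cannot be told apart in these bulk samples.

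The libraries held 15547851 to 18280415 reads on genes. Mitochondrially encoded genes took 7.3% to 8.81% of the reads under the KGN label and 7.71% to 13.5% under the COV434 label, with the highest share in treated library 1 of COV434.

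With 77-39, 1 member changed under one label and none under the other. Between untreated cells of the labels 7 of 9 members tested differed, close to the 69.0% of all genes that did. BIK and BCL2L11 entered that test only through the COV434 libraries, where they were higher. Of the 7 members at 1 FPKM or more under both labels, 5 differed. Under the KGN label, the effector gene BAK1 was the 1 member downregulated of 7 tested, and none was upregulated. A member was tested where its mean over the libraries compared was at least 1 FPKM, which left out BCL2, BCL2L11 and BIK under this label, and called at a Benjamini-Hochberg adjusted p under 0.05 in limma on log2(FPKM + 1). By that rule 34.0% of all genes tested were called. At an unadjusted p under 0.05 the members called were again 1 of 7, against 45.3% of all genes, and 3 of 7 (BAK1, BCL2L1, PMAIP1) had no overlap between treated and control libraries, against 49.7% of all genes. Among the libraries labelled COV434, 0 of 10 members tested were called by limma, against 0.0415% of all genes. At an unadjusted p under 0.05 there was 1 member, BIK, against 8.00% of all genes, and voom on the reads gave 0 members by either rule. This count was 2 without COV434 control 2 and 2 without treated library 1. Treated and control libraries did not overlap for 2 of the 10 members, MCL1 and BIK, against 14.4% of all genes. The median log2 difference of the members tested was -0.00 under the KGN label and 0.02 under the COV434 label, beside medians of 0.01 and -0.02 over all genes.

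**Figure D1:**
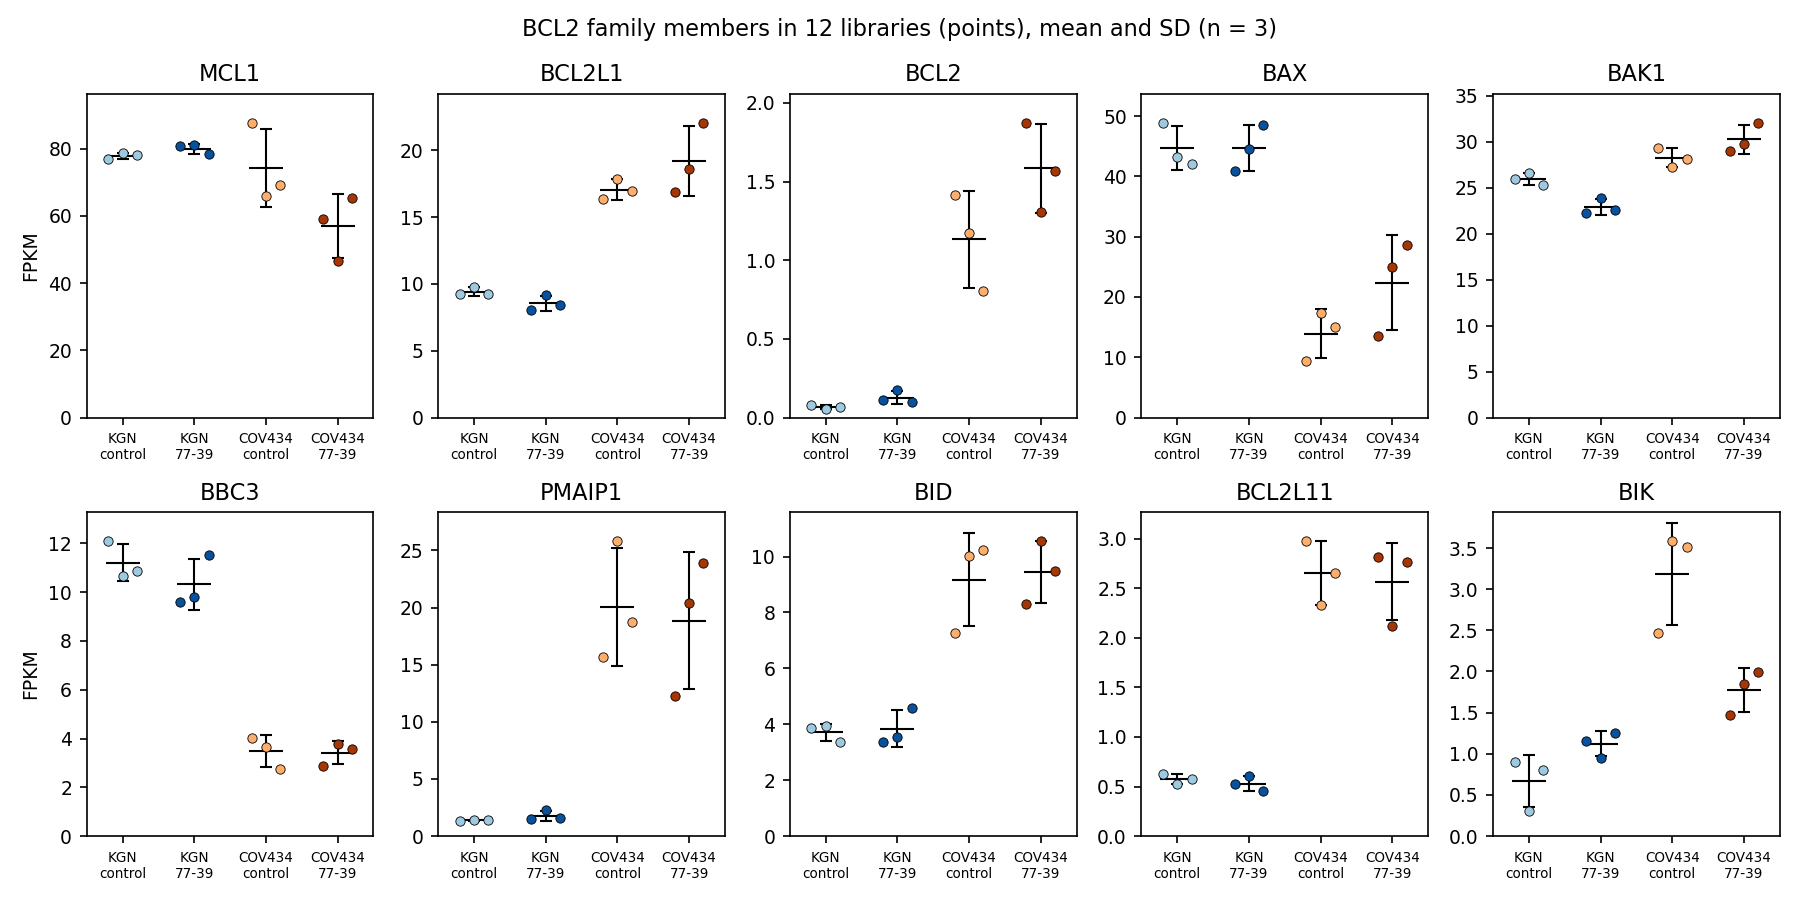
FPKM (vertical axes, each from 0) of the 10 members in the 4 groups, with 1 point per library and the mean and SD of 3 libraries in black. PMAIP1 lies between 1.33 and 2.26 FPKM under the KGN label and between 12.2 and 25.8 under the COV434 label, and BIK under the COV434 label lies between 2.47 and 3.58 in controls and between 1.47 and 2.00 in treated libraries.

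Among the pro-survival genes, MCL1 (chr1:150574551-150579738, minus strand, GRCh38) was the most abundant member in every group. MCL1 encodes a short-lived protein that binds BAK and NOXA. Its level under the KGN label was 77.0, 78.8 and 78.0 FPKM in the controls and 80.7, 81.0 and 78.3 FPKM in the treated libraries. The values of the treated and control libraries overlapped, with a log2 difference of 0.04 (SE 0.04, limma adjusted p = 0.512). COV434 controls had 87.6, 65.8 and 69.3 FPKM and the treated libraries 59.1, 46.6 and 65.2 FPKM. Every treated library lay below every control but the log2 difference of -0.38 (95% interval -0.81 to 0.06) did not pass the test (limma adjusted p = 0.708). It was -0.24 without treated library 2. Between untreated cells of the labels MCL1 did not pass the test, with a log2 difference of 0.08 (95% interval -0.23 to 0.39, limma adjusted p = 0.603). That difference was called after quantile normalization (0.54, adjusted p = 0.0203) and without COV434 control 1 (0.20, adjusted p = 0.0298), the control library with the highest level, and over all alternatives the adjusted p ranged from 0.0202 to 0.997.

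BCL2L1 (chr20:31664452-31723989, minus strand), which encodes BCL-XL, was the next of the pro-survival members. BCL2L2, a pro-survival gene outside the members, exceeded BCL2L1 under the KGN label, at 16.3 FPKM in controls and 17.0 FPKM treated. It was below BCL2L1 under the COV434 label, at 4.48 and 4.08 FPKM. Control libraries labelled KGN had 9.26, 9.78 and 9.23 FPKM and treated libraries 8.07, 9.14 and 8.43 FPKM. All treated values were below all controls, with a log2 difference of -0.13 (95% interval -0.26 to 0.00) that did not pass (limma adjusted p = 0.12). Under the COV434 label the controls had 16.4, 17.9 and 16.9 FPKM and the treated libraries 16.9, 18.6 and 22.04 FPKM. These groups overlapped, and the log2 difference was 0.15 (SE 0.15, limma adjusted p = 0.902). Untreated cells labelled KGN held 9.43 ± 0.31 FPKM (SD, n = 3) and those labelled COV434 17.1 ± 0.76 FPKM, a called log2 difference of -0.79 (SE 0.08, limma adjusted p = 0.000126).

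BCL2 itself (chr18:63123346-63320128, minus strand), the founding pro-survival gene, had the lowest mean of the members in every group. Control libraries labelled KGN had 0.0779, 0.0547 and 0.0691 FPKM, from 11 to 17 reads each, and treated libraries 0.112, 0.174 and 0.0966 FPKM, from 19 to 36 reads each. The treated libraries were all higher, but at these counts the gene was under the limit for testing. With no limit on level, the log2 difference was 0.08 with a limma adjusted p of 0.286. The libraries labelled COV434 had 1.42, 1.18 and 0.808 FPKM untreated and 1.87, 1.31 and 1.57 FPKM treated, which overlapped (log2 difference 0.28, SE 0.18, limma adjusted p = 0.794). BCL2 was at 0.0673 ± 0.012 FPKM in untreated cells labelled KGN and 1.13 ± 0.31 FPKM in those labelled COV434 (SD, n = 3), and every KGN library was below every COV434 library. This line difference was under the limit for testing at 1 FPKM, and had a limma adjusted p of 0.000607 at a limit of 0.1 FPKM. BCL2 met that lower limit only through the COV434 libraries, where it was higher, so this p is descriptive only.

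The effectors, BAX and BAK1, form the pores in the outer membrane. BAX (chr19:48954815-48961798, plus strand) had 48.8, 43.1 and 42.0 FPKM in control and 40.9, 44.5 and 48.5 FPKM in treated libraries labelled KGN. The groups covered the same range, and the log2 difference was -0.00 (95% interval -0.19 to 0.19, limma adjusted p = 0.996). COV434 controls had 9.45, 17.3 and 14.9 FPKM and treated libraries 13.5, 24.9 and 28.6 FPKM. The lowest treated library, number 1, lay among the controls, and the log2 difference of 0.62 (95% interval -0.08 to 1.33) did not pass (limma adjusted p = 0.70). It was 0.39 without control 1, and 0.93 without treated library 1 (adjusted p = 0.301). BAX was higher in untreated cells labelled KGN, at 44.7 ± 3.7 FPKM against 13.9 ± 4.0 FPKM (SD, n = 3), a log2 difference of 1.65 (SE 0.21, limma adjusted p = 0.000451).

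BAK1 (chr6:33572547-33580293, minus strand) had 25.9, 26.6 and 25.4 FPKM in the KGN controls and 22.3, 23.9 and 22.6 FPKM after 77-39. Every treated library was below every control, and the decrease to 0.882 of the control level was called (log2 difference -0.17, SE 0.05, 95% interval -0.28 to -0.06, limma adjusted p = 0.0266). The call rested on small margins: it was lost, among other fits, without control 2 (adjusted p = 0.0872), without control 3 (0.0573), without treated library 1 (0.0877) or without treated library 3 (0.0585), and in 1 fit of all 12 libraries (0.181), with a range of 0.0178 to 0.181 over all alternatives, while the direction stayed negative in each. Under the COV434 label the controls had 29.4, 27.3 and 28.2 FPKM and the treated libraries 29.02, 29.7 and 32.1 FPKM, which overlapped (log2 difference 0.09, SE 0.13, limma adjusted p = 0.955). The difference between the responses of the lines was -0.27 (95% interval -0.51 to -0.03) and did not pass the adjusted test (limma adjusted p = 0.214). A processed pseudogene, BAK1P1, held 41 reads under the KGN label and 147 under the COV434 label, and how the counting divided shared reads is not given in the sources used here. The genes whose pattern over the 12 libraries was most like that of BAK1, after centring each line on its mean, were PHF13 (Pearson r = 0.948) and MED26 (r = 0.931), out of 10235 genes. The treatment and depth of a library are common to all its genes, and the correlations are a description with no test.

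**Figure D2:**
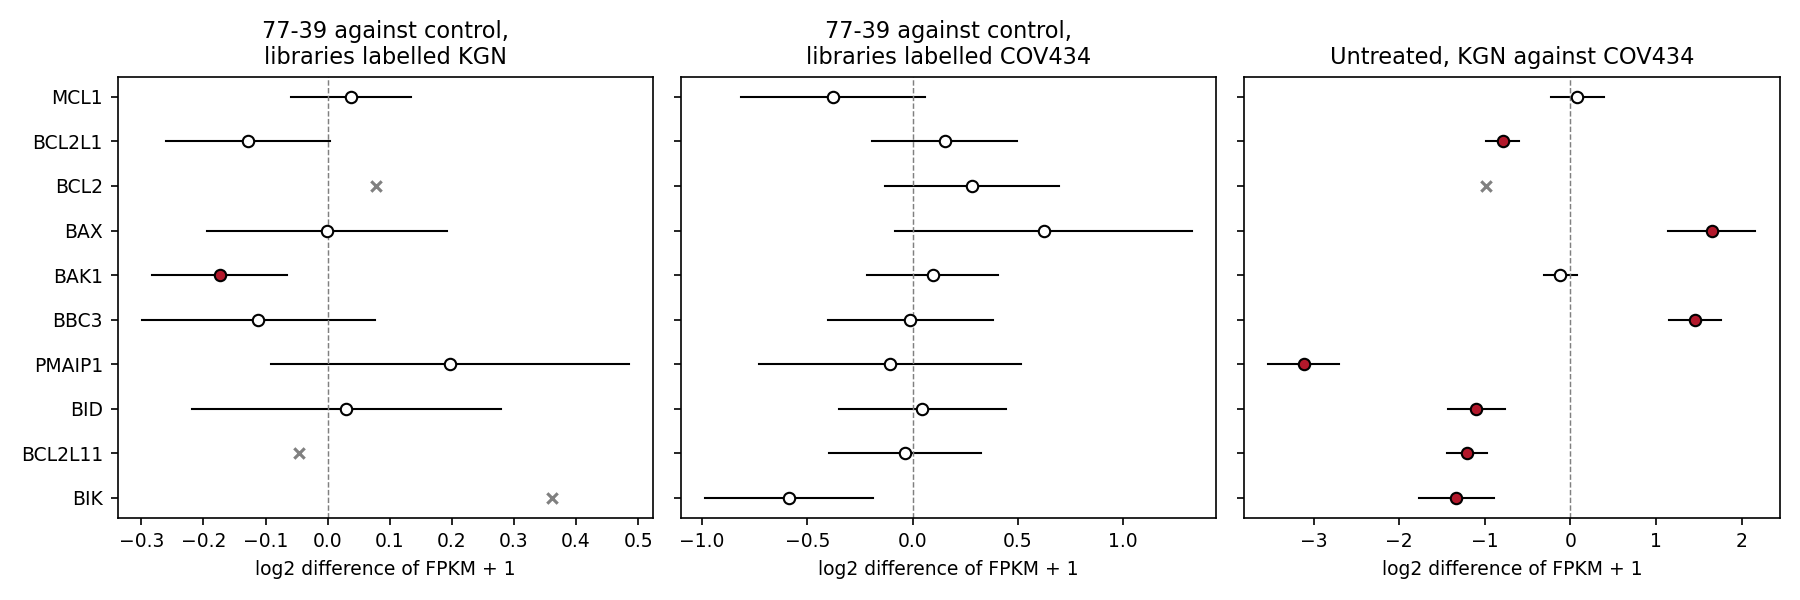
Differences of log2(FPKM + 1) (horizontal axes, a separate scale in each panel) for the 10 members, with limma 95% intervals as lines, filled points at an adjusted p under 0.05, open points for members that did not pass, and crosses for members under the 1 FPKM limit. BAK1 under the KGN label, at -0.17, is the filled point of the treatment panels, and the line comparison reaches from -3.12 for PMAIP1 to 1.65 for BAX.

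The BH3-only genes held the largest difference between the labels among the members tested. PMAIP1 (chr18:59899948-59904306, plus strand), which encodes NOXA, had 1.33, 1.44 and 1.39 FPKM in the KGN controls and 1.45, 2.26 and 1.55 FPKM after treatment. The treated values were all higher, the lowest of them only just, and the log2 difference of 0.20 (95% interval -0.09 to 0.49) did not pass (limma adjusted p = 0.249). COV434 libraries had 15.7, 25.8 and 18.7 FPKM untreated and 12.2, 20.4 and 23.9 FPKM treated. These overlapped widely (log2 difference -0.11, 95% interval -0.73 to 0.51, limma adjusted p = 0.984), and the difference was positive without control 2 (0.08) or without treated library 1 (0.16). In untreated cells PMAIP1 was at 1.38 ± 0.057 FPKM under the KGN label and 20.1 ± 5.2 FPKM under the COV434 label (SD, n = 3), a log2 difference of -3.12 (SE 0.17, limma adjusted p = 6.2e-06).

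BBC3 (chr19:47220822-47232766, minus strand), which encodes PUMA, ran the other way between the lines. Its levels were 12.1, 10.7 and 10.9 FPKM in KGN controls and 9.60, 9.82 and 11.5 FPKM in treated libraries. The groups overlapped (log2 difference -0.11, 95% interval -0.30 to 0.08, limma adjusted p = 0.315). The COV434 values were 4.02, 3.64 and 2.74 FPKM untreated and 2.88, 3.79 and 3.59 FPKM treated. They overlapped as well (log2 difference -0.01, 95% interval -0.40 to 0.38, limma adjusted p = 0.999). Untreated, BBC3 was 3.23 times as high under the KGN label, with a log2 difference of 1.46 (SE 0.13, limma adjusted p = 6.3e-05).

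BID (chr22:17734138-17774770, minus strand), which caspase-8 cleaves to link death receptors to mitochondria, had 3.86, 3.92 and 3.35 FPKM in KGN controls and 3.36, 3.55 and 4.59 FPKM after treatment. COV434 controls had 7.26, 10.0 and 10.2 FPKM and treated libraries 8.31, 10.54 and 9.47 FPKM. Treated and control values overlapped in both lines, with log2 differences of 0.03 (95% interval -0.22 to 0.28, limma adjusted p = 0.844) and 0.05 (95% interval -0.35 to 0.44, limma adjusted p = 0.99). Untreated BID was lower under the KGN label (log2 difference -1.10, SE 0.14, limma adjusted p = 0.000419).

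BCL2L11 (chr2:111119378-111168447, plus strand), which encodes BIM, had 0.624, 0.527 and 0.580 FPKM in KGN controls and 0.521, 0.605 and 0.458 FPKM after treatment. COV434 controls had 2.97, 2.33 and 2.66 FPKM and treated libraries 2.82, 2.12 and 2.76 FPKM. Treated and control values overlapped under both labels. The gene was under the limit for testing in KGN, and its COV434 log2 difference was -0.04 (95% interval -0.40 to 0.33, limma adjusted p = 0.99). Untreated BCL2L11 was lower under the KGN label, at 0.577 ± 0.048 against 2.65 ± 0.32 FPKM (SD, n = 3), with a log2 difference of -1.21 (SE 0.10, limma adjusted p = 4.1e-05). BCL2L11 met the limit for that test only through the COV434 libraries, where it was higher, so this p is descriptive only. The long noncoding RNA gene MIR4435-2HG overlaps it on the opposite strand and held 40 reads under the KGN label and 850 under the COV434 label. Whether the counting used strand is not given in the sources used here, so reads of the overlap cannot be assigned.

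BIK (chr22:43110748-43129712, plus strand), a BH3-only gene whose protein sits mainly at the endoplasmic reticulum, had values that ran in opposite directions under the labels. KGN controls had 0.906, 0.307 and 0.800 FPKM and treated libraries 1.16, 0.953 and 1.26 FPKM, from 36 reads in all controls and 56 in all treated libraries. The treated values were all higher, but the gene was under the limit for testing, and with the limit at 0.1 FPKM the log2 difference of 0.36 did not pass (limma adjusted p = 0.181, up to 0.307 in the other fits that tested it). COV434 controls had 2.47, 3.58 and 3.51 FPKM and treated libraries 1.47, 1.85 and 2.00 FPKM, from 153 and 84 reads. Every treated library was below every control, to 0.556 of the control mean, and the log2 difference of -0.59 (SE 0.17, 95% interval -0.99 to -0.19) had an unadjusted limma p of 0.00915 and an adjusted p of 0.351. The test of the difference between the responses, KGN minus COV434, gave 0.95 on the log2 scale (SE 0.22, 95% interval 0.46 to 1.44, limma adjusted p = 0.0424). BIK was the 1 member called of 9 tested there, against 3.60% of all genes. It reached the limit for testing through the COV434 libraries, since its KGN control mean was under 1 FPKM and its KGN libraries held 5 to 20 reads each, so the call says little of the KGN response. With the replicate block, the adjusted p was 0.0229. The call without the block was lost with a pseudocount of 0.1 (0.0916), a limit of 0.1 FPKM (0.0618), no limit (0.104) or voom on the reads (0.145), and on leaving out any 1 of 11 of the 12 libraries (0.0509 to 0.112), and held without COV434 control 1 (0.0196). Untreated BIK was lower under the KGN label (log2 difference -1.33, SE 0.18, limma adjusted p = 0.000634). There too BIK met the limit only through the COV434 libraries, where it was higher, so this p is descriptive only.

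Libraries of the same number under the COV434 label deviated together (correlations of 0.4, 0.474 and 0.166 for numbers 1, 2 and 3), which was not so under the KGN label. Correlations between unlike numbers ran from -0.469 to 0.154 under the COV434 label, so number 3 stood barely above them. The labels number the libraries but state no pairing. In the paired fit, with the replicate block, 3 members had an unadjusted p under 0.05, against 14.4% of all genes: BAX, BIK and MCL1. Their limma adjusted p were 0.109, 0.151 and 0.249, and none of the 10 passed. From number 1 to 3, treated over control ratios were 1.43, 1.44 and 1.92 for BAX. BIK had ratios of 0.596, 0.518 and 0.568, and MCL1 of 0.674, 0.708 and 0.941. The ratios kept 1 direction in all 3 pairs for 5 of the 10 members, these 3 and BCL2 (1.32, 1.11 and 1.94) and BCL2L1 (1.03, 1.04 and 1.303), and for the other 5, such as PMAIP1 (0.778, 0.791 and 1.28), they did not. Treated library 1, which had the highest mitochondrial share (13.5%), was the lowest treated library for 7 of the 10 members, all but MCL1, BCL2 and BCL2L11. Neither this count nor that of the directions was taken over all genes, so both are descriptions. A link between mitochondrial share and member levels was not tested. Without treated library 1, the log2 difference was 0.93 for BAX, -0.51 for BIK and 0.16 for PMAIP1.

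**Figure D3:**
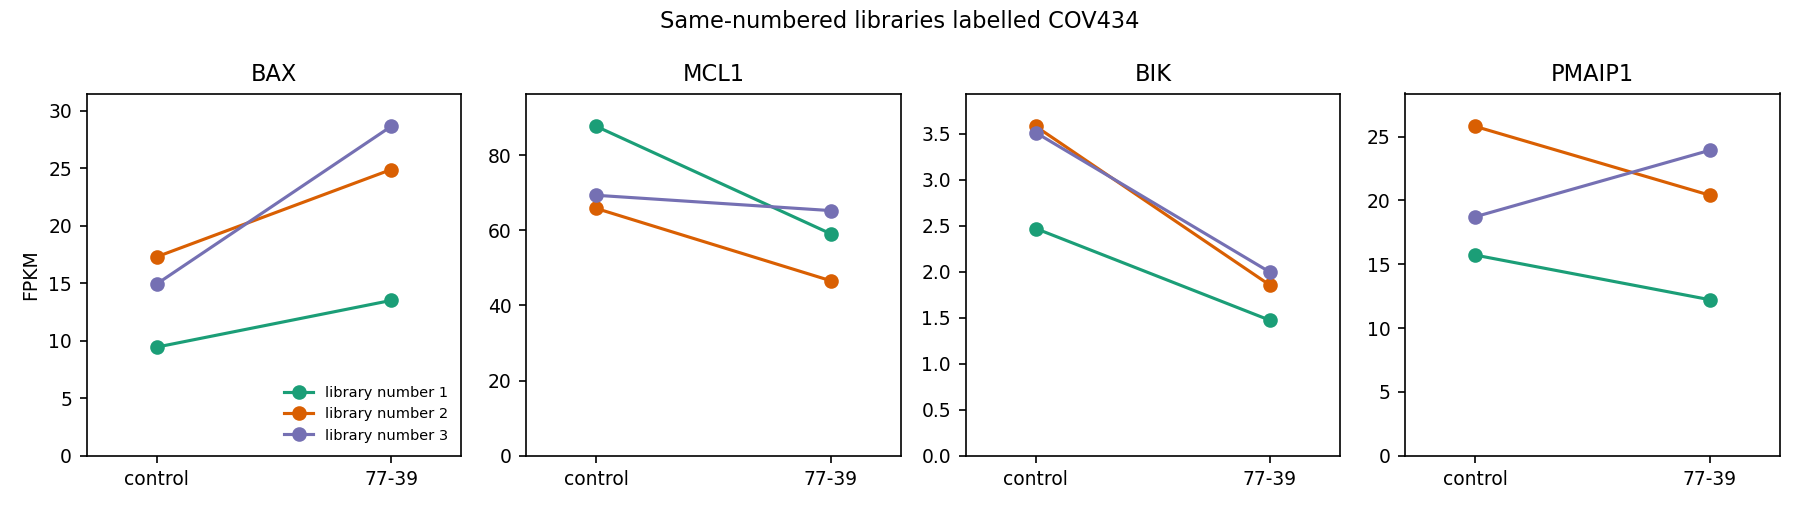
FPKM (vertical axes from 0) of BAX, MCL1, BIK and PMAIP1 in control and 77-39 libraries labelled COV434, with a line joining libraries of the same number. All 3 lines slope up for BAX and down for MCL1 and BIK, while those of PMAIP1 slope down in 2 pairs and up in 1.

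Between untreated cells, 7 of the 9 members tested differed, with BAX and BBC3 higher under the KGN label and PMAIP1, BIK, BCL2L11, BID and BCL2L1 lower, a share near that of all genes (69.0%). BIK and BCL2L11 reached the limit for testing only through the COV434 libraries, and of the 7 members at 1 FPKM or more under both labels 5 differed. The median log2 difference of the 9 members was -0.79, beside -0.02 over all genes. It includes BIK and BCL2L11, let in by the label where they are higher, so it does not describe the family. Of the 7 members at the limit under both labels, BAX, BBC3 and MCL1 had positive differences and PMAIP1, BID, BCL2L1 and BAK1 negative ones. MCL1 and BAK1 did not pass (BAK1 log2 difference -0.12, 95% interval -0.31 to 0.08, limma adjusted p = 0.232), and BAK1 took the other sign with voom (0.08) and quantile normalization (0.30, adjusted p = 0.0161, the lowest of a range up to 0.456). Voom moved the median of all genes to 0.18, so small line differences depend on the scaling. The 7 that differed kept their direction in those fits. With quantile normalization all 9 were called, 4 higher and 5 lower, against 2 higher and 5 lower here.

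The order of levels differed by label. KGN controls ran MCL1, BAX, BAK1, BBC3, BCL2L1, BID, PMAIP1, BIK, BCL2L11, BCL2 from high to low, and of neighbours in that order only BIK and BCL2L11 overlapped. COV434 controls ran MCL1, BAK1, PMAIP1, BCL2L1, BAX, BID, BBC3, BIK, BCL2L11, BCL2. There PMAIP1, BCL2L1, BAX and BID overlapped in turn with their neighbours, as did BBC3, BIK and BCL2L11. Order after treatment was the same under the KGN label. In treated COV434 libraries BAX came next after BAK1 by mean, but overlapped with BCL2L1, and BIK came after BCL2L11.

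Within each role, shares were taken of the FPKM summed over the members described here. Other BH3-only genes, such as BAD and HRK, are not in the totals. BAD was at 11.0 FPKM in KGN controls and 10.3 FPKM after treatment, and at 11.6 and 11.2 FPKM under the COV434 label. BBC3 took 63.8% ± 0.54 (SD, n = 3) of the BH3-only total in KGN controls and 58.8% ± 1.4 after treatment, but 9.23% ± 2.8 and 9.59% ± 0.91 under the COV434 label. PMAIP1 took 7.92% ± 0.77 and 10.1% ± 2.7 under the KGN label, and 51.6% ± 4.6 and 51.4% ± 6.7 under the COV434 label. The gene for PUMA thus led the BH3-only members in every KGN library and the gene for NOXA in every COV434 library. BIK's share was 3.78% ± 1.7 and 6.40% ± 0.82 under the KGN label, and 8.26% ± 0.89 and 4.96% ± 0.31 under the COV434 label. BID stayed between 21.2% and 26.6% in the group means.

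MCL1 took 89.1% ± 0.23 of the total of the pro-survival members in KGN controls and 90.2% ± 0.56 after treatment. Under the COV434 label it took 80.1% ± 2.8 and 73.1% ± 3.0. BCL2L1 took most of the remainder, with 18.7% ± 2.8 in COV434 controls and 24.8% ± 3.2 after treatment. The pro-survival gene BCL2L2, at 16.3 FPKM in KGN controls and 4.48 in COV434 controls, is outside these totals. With it counted, the shares of MCL1 and BCL2L1 would be lower. BAX over BAK1 was 1.72 ± 0.14 in KGN controls and 1.95 ± 0.17 treated, and 0.496 ± 0.16 and 0.732 ± 0.23 under the COV434 label (SD, n = 3). BAX thus exceeded BAK1 in every KGN library and was below it in every COV434 library. The effector members summed to 70.6 ± 3.8 FPKM in KGN controls and 42.2 ± 3.0 FPKM in COV434 controls. BOK, of the rest of the family, is outside these sums, at 19.8 FPKM in KGN controls and 5.19 FPKM in COV434 controls. The BH3-only members summed to 17.6 ± 1.1 and 38.6 ± 6.5 FPKM. Sums set side by side between the labels carry the difference in FPKM scaling given above. These shares and sums are descriptions and were not tested.

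**Figure D4:**
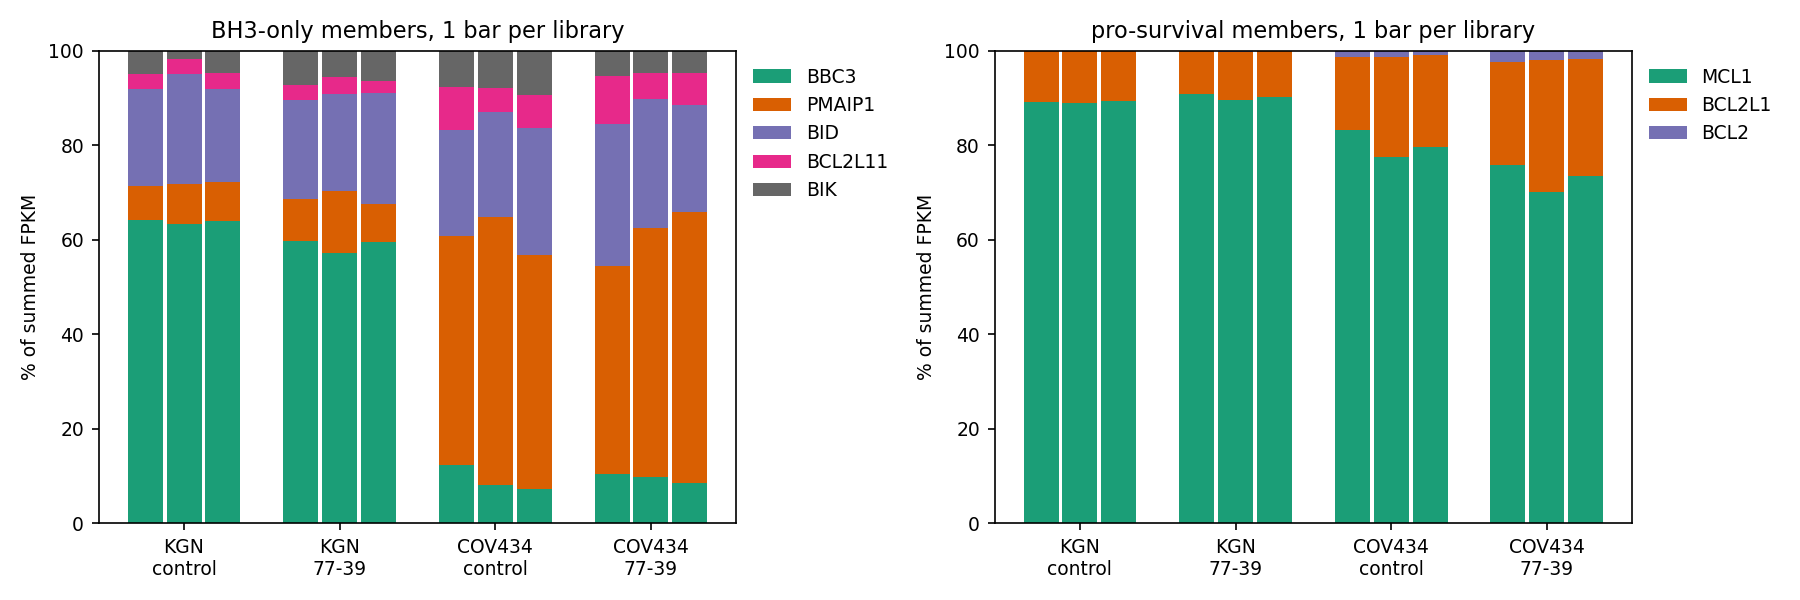
Percent of the summed FPKM of the BH3-only members (left) and the pro-survival members (right) taken by each gene, with 1 stacked bar per library in 4 groups of 3. BBC3 leads the BH3-only bars under the KGN label (63.8% in controls) and PMAIP1 under the COV434 label (51.6% in controls), and MCL1 leads every pro-survival bar.

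Promoter sequence is shown for PMAIP1 and BAX, and for BAK1, the member called with treatment. Of the members tested, PMAIP1 and BAX had the largest line difference of log2(FPKM + 1) in each direction. By the ratio of means, KGN over COV434, BBC3 (3.23) was just above BAX (3.21). BCL2 (0.059), under the limit for testing, was below PMAIP1 (0.069). RefSeq windows on GRCh38.p14 held 8 of the 10 members (MCL1 and BIK had no entry). The 150 bases just before the RefSeq start are given 5′ to 3′ on the strand of the gene, from chr19:48954725-48954874 (plus) for BAX, chr18:59899846-59899995 (plus) for PMAIP1 and chr6:33580277-33580426 (minus) for BAK1. Capitals mark the motifs searched on both strands. The E-box was searched as CACGTG, and the half-site of the cyclic AMP response element (CRE) as TGACGT. The CCAAT box was searched by its name's letters, and the GC box as GGGCGG. The FOXO site was TGTTTAC, the TATA box TATAAA, and the half-site bound by p53 was searched by its known pattern.
BAX: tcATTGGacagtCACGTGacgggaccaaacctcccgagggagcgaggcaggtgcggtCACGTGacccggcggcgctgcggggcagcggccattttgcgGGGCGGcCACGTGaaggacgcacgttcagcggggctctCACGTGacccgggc
PMAIP1: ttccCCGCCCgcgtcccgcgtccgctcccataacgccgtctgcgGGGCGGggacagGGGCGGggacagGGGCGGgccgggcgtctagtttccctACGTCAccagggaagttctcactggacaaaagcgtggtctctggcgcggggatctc
BAK1: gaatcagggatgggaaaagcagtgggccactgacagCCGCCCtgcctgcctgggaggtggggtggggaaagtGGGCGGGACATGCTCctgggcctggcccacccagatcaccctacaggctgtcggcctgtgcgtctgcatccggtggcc
The BAX window held 4 E-boxes, starting at bases -138, -93, -45 and -14 from the start. The PMAIP1 window held a CRE half-site at -56 to -51 on the reverse strand and 4 GC boxes. The BAK1 window held a p53 half-site at -73 to -64, which overlaps a GC box by its first base. Of 35116 windows of 300 bases (250 before and 50 after the start), 7.26% held an E-box, 7.98% a CRE half-site, 44.95% a GC box, 34.61% a CCAAT box, 3.42% the FOXO site, 11.53% a TATA box and 6.63% the p53 half-site. E-boxes also lay in the windows of BBC3 and BID, the FOXO site in that of BCL2L11 and the TATA box in that of BCL2L1. These are matches of letters only.

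The other genes of the pathway were taken from 7 lists with 76 genes. Of 64 tested, 14 rose and 11 fell under the KGN label, where 34.0% of all genes were called. By limma 0 of 64 were called under the COV434 label, where 5 had an unadjusted p under 0.05, against 8.00% of all genes.

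In the rest of the BCL2 family, 1 of 9 rose and 4 fell under the KGN label. HRK, a BH3-only gene, rose by 0.70 on the log2 scale, with 5.65 ± 0.47 FPKM in controls and 9.79 ± 0.54 FPKM in treated libraries (SD, n = 3). BNIP3 and BNIP3L, mitophagy receptors, fell by 0.98 and 1.02 on the log2 scale, from 19.1 to 9.15 FPKM and from 15.0 to 6.89 FPKM. Their COV434 means ran the same way, from 26.3 to 11.0 and from 19.5 to 9.65 FPKM, but did not pass the adjusted test. Among the death receptors and adaptors, 4 of 8 rose and 0 fell under the KGN label, led by TNFRSF10B, the TRAIL receptor DR5 (48.8 ± 1.5 to 69.9 ± 3.2 FPKM, log2 difference 0.51), TNFRSF10D (0.34) and TRADD (0.22).

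Of 13 genes for the apoptosome and caspases, 3 rose and 3 fell under the KGN label, and those named by the largest change were ENDOG (-0.72), CASP9 (-0.28) and AIFM1 (-0.27). Among 5 inhibitors of apoptosis, BIRC2 (0.24) and XIAP (0.22) rose and BIRC5, survivin, a cell division gene as well, fell by 0.68 on the log2 scale. VDAC3 (-0.29), a channel of the outer mitochondrial membrane, was the 1 of 7 membrane partners that changed, and DYNLL1 (-0.31), a dynein light chain that binds BIM, the 1 of 8 genes in the list for control of MCL1 stability. Among 14 transcription factors and cofactors known to act on members, 4 rose and 1 fell, with ATF3 (1.55) and DDIT3, which encodes CHOP (0.86), rising and E2F1 falling by 0.99 on the log2 scale. ATF3 (1.79) and E2F1 (-0.88) were also the 2 genes of the lists whose responses differed between the labels, of 64 tested there and beside 3.60% of all genes.

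Between untreated cells, 22 of the 64 genes tested were higher and 25 lower under the KGN label, beside 69.0% called of all genes. The named differences were BOK (1.75), BCL2L2 (1.66) and HRK (1.39) in the family, CASP9 (-2.72), ENDOG (-1.59) and CASP2 (-1.15) among the caspases and apoptosome, and BIRC3 (-3.50), BIRC5 (-1.49) and BIRC6 (0.82) among the inhibitors. BIRC3 was far under 1 FPKM in every untreated library labelled KGN. It reached the limit for testing only through the COV434 libraries, where it was higher, so its call and its place in the list are descriptive only. Among receptors they were TNFRSF10D (2.18), FAS (1.22) and TNFRSF1A (-1.15). CASP9, the initiator caspase of the mitochondrial route, was at 5.17 ± 0.40 FPKM under the KGN label and 39.6 ± 0.88 FPKM under the COV434 label (SD, n = 3). USP9X, which removes ubiquitin from MCL1, was at 83.2 ± 8.2 and 20.8 ± 0.58 FPKM (log2 difference 1.95), with BTRC at 0.77 and GSK3B at -0.78 on the log2 scale. VDAC3 (0.92) and MFN1 (0.44) differed among membrane partners, and TRIB3 (-2.11), DDIT3 (1.78) and HIF1A (-1.51) among the transcription factors and cofactors.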

How the data were processed

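RNA sequencing (total RNA, TruSeq kit) covered 12 libraries, 3 in each of 4 groups. The authors counted reads on genes after alignment with HISAT2 2.0.5 (submitters' processing notes) and deposited FPKM for the whole series. The notes name the mouse builds mm10 and mm8, but the coordinates of all 58735 genes match GENCODE 29 on GRCh38. The annotation, counter and strand setting are not given in the sources used here. FPKM times gene length gave whole reads in 100.0% of the positive values of lower count (tolerance 0.05). Higher counts were rounded without that check. The counts gave the depth of 15547851 to 18280415 reads per library.

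limma 3.58.1 (lmFit, eBayes with trend) in R 4.3.3 was fitted on log2(FPKM + 1) over genes averaging 1 FPKM or more, with Benjamini-Hochberg adjustment and two-sided tests. Each label was fitted alone, the difference of responses over 12 libraries, and untreated KGN minus untreated COV434 over 6. A fold on this scale understates changes of low genes. The fit was tested on simulated data. All 10 members are named. From 7 lists of other genes, at most 3 per list and comparison with the largest change among those at an adjusted p under 0.05 are named, as are the 2 genes most alike in pattern to a member called. The members, lists and tests were chosen with earlier results of these data known. Same-numbered COV434 libraries deviated together, least for number 3, so the replicate number was used as a block beside the unblocked fit. Alternatives were a pseudocount of 0.1, a limit of 0.1 FPKM, no limit, median-ratio scaling, quantile normalization, voom on the reads, protein-coding genes, the block, 1 fit of all libraries, and each library left out. Member counts at an unadjusted p were added after seeing the data.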

Additional observations from a re-analysis of the deposited data

Results flagged for a closer look

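BIK was picked out by the limma test that sets the KGN response against the COV434 response, at 0.95 on the log2 scale (KGN minus COV434, limma adjusted p = 0.0424, 3 libraries in each of 4 groups). The call was lost in 15 of 20 alternatives, and over all 20 the adjusted p ran from 0.0196 to 0.145. BIK averaged under 1 FPKM over the libraries labelled KGN, with 5 to 20 reads in each, and entered this test through those labelled COV434. All 3 treated libraries were above all controls under the KGN label and below all controls under the COV434 label.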

How the results depend on the processing

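Of the members' log2 differences recomputed under the alternatives, 498 kept their direction and their side of the threshold, 21 kept the direction but lost the call, 2 gained one and 31 changed sign. The cause was not tested for any. Under the KGN label, members called fell from 1 to 0 with the replicate block (BAK1 adjusted p = 0.0566, call lost) and in 1 fit of all 12 libraries, and were 0 to 1 without single libraries. Same-numbered KGN libraries did not deviate together (correlations of -0.016, -0.018 and -0.019). Genes called fell from 4307 to 1237 in the 12-library fit, and were 2751 (without treated library 2) to 4128 without single libraries. Members at an unadjusted p under 0.05 were 2 with median-ratio scaling or quantile normalization and 1 to 2 without single libraries (2 without treated library 2 or 3).

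Under the COV434 label, genes called, 5 in all, were 3 with a pseudocount of 0.1 or a limit of 0.1 FPKM, 1 with no limit, 25 with voom, 37 for protein-coding genes, 87 with the replicate block, 488 in the 12-library fit, and 1 to 7 without single libraries. Members at an unadjusted p under 0.05 were 0 with voom, 3 with the replicate block, 4 in the 12-library fit, and 1 to 2 without single libraries. Members whose responses differed fell from 1 to 0 with a pseudocount of 0.1, either lower limit or voom, and were 0 to 1 without single libraries. Genes there fell from 472 to 264 with voom, and were 126 (without KGN treated library 1) to 975 (without COV434 treated library 1) without single libraries. The replicate block changed no other call of a member.

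Sign changes with another scaling were BAX under the KGN label (0.051 with quantile normalization, 0.001 with voom), BAK1 between the lines (0.305 with quantile normalization, 0.083 with voom) and BBC3 under the COV434 label (0.005 with quantile normalization). Without single libraries, ranges that crossed 0 held for MCL1 -0.001 to 0.204 between the lines, and BAX -0.061 to 0.064, BID -0.079 to 0.1 under the KGN label, and BBC3 -0.134 to 0.080, PMAIP1 -0.297 to 0.160, BID -0.098 to 0.125, BCL2L11 -0.101 to 0.057 under the COV434 label, and BBC3 -0.191 to 0.023, BID -0.124 to 0.129, BCL2L11 -0.103 to 0.055 in the difference of responses. Counts of 36 to 56 reads limited BIK, and 44 to 79 reads limited BCL2, under the KGN label.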
